A study of Canis lupus familiaris with 4 samples.

Results

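The genes described here encode the SLC25 family of carrier proteins, chosen by symbol alone: every gene of the deposited table named SLC25A with a number, plus the uncoupling proteins UCP1, UCP2 and UCP3. The rule found 43 of the 30951 genes in the table, and with 1 row for each symbol it used no measured value. They were read in total RNA of mesenchymal stromal cells (MSCs) grown from the fat of 4 dogs, 1 primary culture and 1 library for each. All cultures stand in 1 untreated group, were grown in DMEM with 10% fetal bovine serum and were harvested after 48 h in multiwell plates. The labels give no genotype, treatment or age that divides the dogs, so no conditions were contrasted, and the spread between dogs, which includes culture and library differences, was the error throughout.

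SLC25 proteins sit for the most part in the inner mitochondrial membrane and pass nucleotides, phosphate, carboxylates, amino acids and cofactors between the matrix and the cytosol. They are made in the cytosol and reach the membrane through the TOM and TIM22 import complexes. Exceptions in the family are SLC25A17, a peroxisomal carrier, and SLC25A46, an outer membrane protein that takes part in mitochondrial fission and fusion. The uncoupling proteins are members of the same family, and UCP1 is the one that makes heat in brown fat. SLC25A3, SLC25A10, SLC25A22, SLC25A24, SLC25A28, SLC25A31 and UCP1, which the dog RefSeq gene table names, were not analysed here under their symbols, so the phosphate carrier and the thermogenic uncoupling protein have no value below.

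Reads assigned to genes numbered 22411268, 16246965, 15203607 and 7474011 in dogs 1 to 4, so dog 4 was the shallowest library. Among the stromal marker genes 7 of 8 lay above the median detected gene, NT5E (CD73) being below. The leukocyte markers PTPRC, ITGAM, CD3E and AIF1 were not detected, meaning reads in fewer than 2 of the 4 libraries. ITGAM had 12 reads in dog 1 alone, PTPRC had 5 in dog 3 alone, and CD3E and AIF1 had 0. CSF1R was read in every dog and called neither above nor below, at 0.09 ± 0.78. By contrast the B-cell receptor gene CD79A was above in all dogs, at a level of 5.31 ± 0.17. Of the 4 measured hepatocyte markers none was detected, ALB having no value here under its symbol. No endothelial marker was above, but VWF and KDR were read in every dog and called neither above nor below. VWF had 380, 62, 214 and 12 reads in dogs 1 to 4, and KDR had 95, 65, 76 and 34. CDH5 was below and PECAM1 had 0 reads. The 4 measured white adipocyte markers summed to 4.37, 8.37, 8.81 and 15.7 counts per 1e6 assigned reads (CPM) in dogs 1 to 4. Among them CIDEC, which marks mature fat cells, had 0 reads. ADIPOQ, FABP4 and the leukocyte marker CD14 had no value here under their symbols. LIPE had 95, 135, 107 and 74 reads and was neither above nor below. LEP, with 0, 1, 4 and 37 reads, and PLIN1, with 3, 0, 23 and 6, were below.

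Most carriers were read in every culture, and how many lay above or below the median gene hung on which genes set that median. Detection was set at reads in 2 or more of the 4 libraries. Of the 43 carriers, 40 met it and 37 had reads in all 4 dogs. Of all 30951 genes, 17200 met it and 13834 had reads in all 4 dogs. The level of a gene is its deposited log2 value minus the median detected gene of the same library, and it was tested against a distance of 1 log2 unit (limma, Benjamini-Hochberg over the 17200 detected genes, n = 4 dogs). By that test 18 carriers were called above, 6 were called below and 16 were neither, while 3 were not detected. Among all detected genes 33.3% were called above and 35.8% below, against 45% and 15% of the 40 detected carriers. The shares of all detected genes are the background for the counts of calls in each group and list. The median level of the detected carriers was 0.87, beside -0.02 over all detected genes. Of the 42 members with an entry in the RefSeq gene annotation, 10 overlap a protein-coding gene there, among them SLC25A12 (HAT1 and LOC102152240), SLC25A15 (LOC606856), SLC25A40 (RUNDC3B) and SLC25A44 (BGLAP). With the counting's strand setting not given in the sources used here, reads of such pairs cannot be told apart. These levels rest on reads per gene with no correction for transcript length, because the sources used here give no transcript lengths, so a high level means many reads and not necessarily many molecules. The count above was 13 to 16 when 1 dog was left out, against 18 with all dogs. That was 32.5% to 40% of the detected carriers, beside 30.1% to 32.1% of all detected genes. When the reference was the median of the genes read in all 4 dogs, 9 carriers were above and 12 below, or 22.5% and 30%, beside 21.7% and 43.5% of all detected genes. When only those genes were tested, 9 of 37 carriers were above and 9 below. That is 24.3% for each, beside 26.7% above and 29.5% below among all genes tested.

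**Figure D1:**
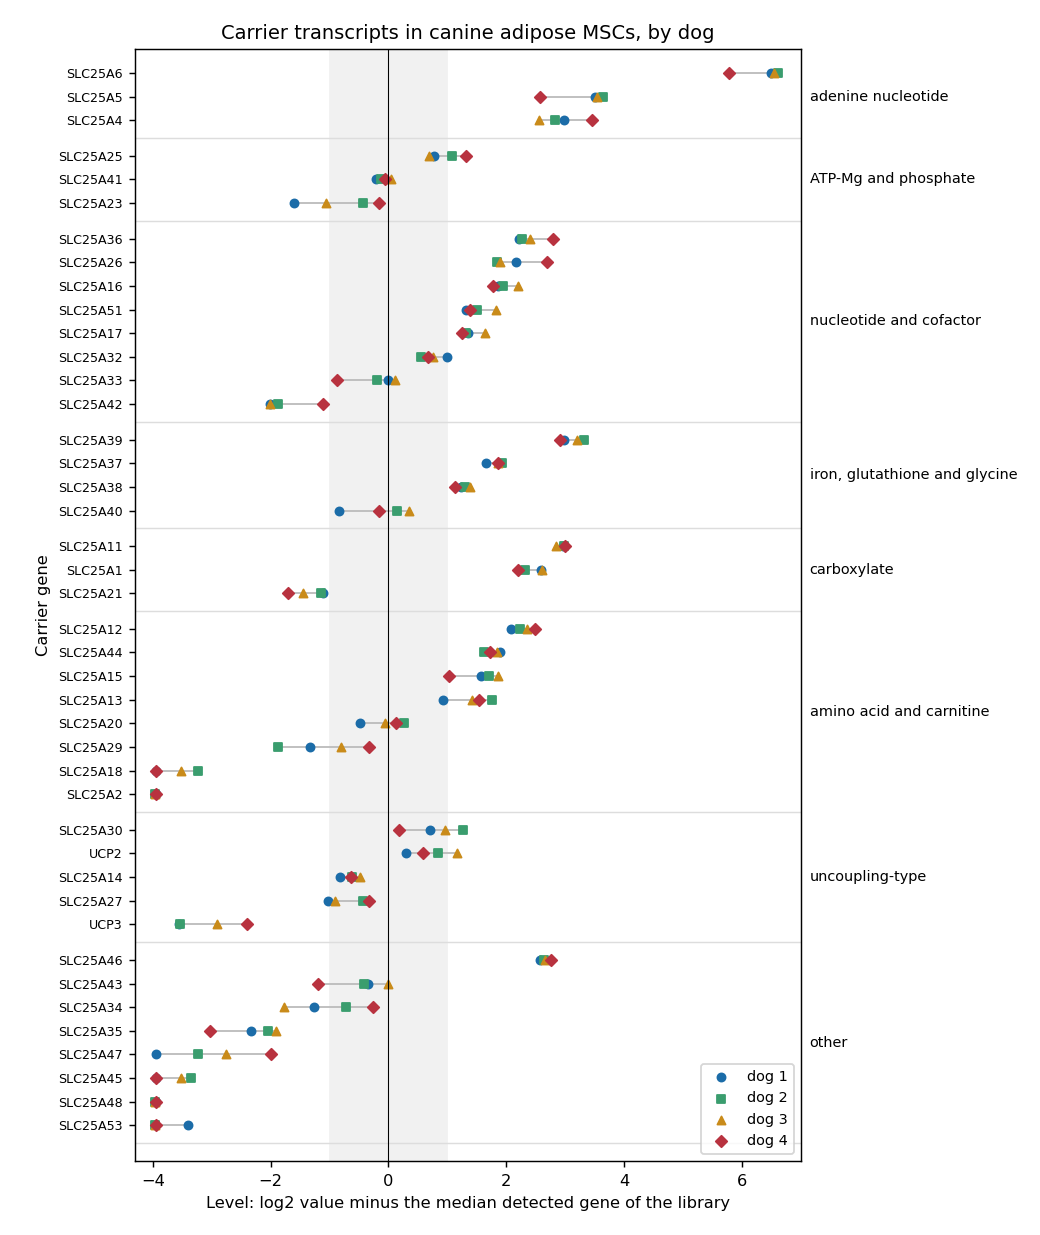
Level of 42 of the 43 carriers in each dog (x axis, log2 value minus the median detected gene of the library), with 1 symbol per dog, a grey line from the lowest to the highest dog, and genes grouped by role. The shaded band marks the tested distance of 1 log2 unit, and SLC25A6 stands farthest to the right, between 5.77 and 6.61.

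The ADP/ATP carriers exchange cytosolic ADP for ATP made in the matrix, and each of the 3 measured here passed the test as above. SLC25A6 (ENSCAFG00000010987), known as ANT3, had 14238, 15747, 15123 and 8659 normalized reads in dogs 1 to 4. Dogs 1 to 3 lay close together and dog 4 below them, with a mean over the other 3 that was 1.74 times its value. Its level was 6.36 ± 0.39 (mean ± SD, as for all levels here; limma, Benjamini-Hochberg adjusted p = 4.22e-09, above in 4 of 4 dogs), which ranked it 95 by normalized reads among all genes of the table. SLC25A5 (ENSCAFG00000018384), or ANT2, the form known from dividing cells, had 1784, 1982, 1851 and 924 normalized reads. It too was lowest in dog 4, the mean of dogs 1 to 3 being 2.03 times higher, and its level was 3.31 ± 0.50. SLC25A4 (ENSCAFG00000007596), or ANT1, the form known from heart and skeletal muscle, ran the other way, with 1225, 1118, 932 and 1711 normalized reads and its highest value in dog 4, 1.57 times the mean of the others. Its level was 2.95 ± 0.37. The 3 genes encode closely similar proteins and have processed copies in mammalian genomes, and how the authors' counting treated reads that fit several places is not given in the sources used here.

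The mix of the 3 ADP/ATP carriers therefore differed in dog 4. SLC25A4 took 7.10% of their reads in dog 1 (95% Wilson interval 6.78 to 7.43), 5.93% in dog 2 (5.62 to 6.27), 5.20% in dog 3 (4.89 to 5.53) and 15.1% in dog 4 (14.2 to 16.1). The interval of dog 4 lies clear of the others, although these intervals cover counting error only. SLC25A5 took 10.3%, 10.5%, 10.3% and 8.18% in dogs 1 to 4, so its share was nearly constant in dogs 1 to 3. For SLC25A6 the shares were 82.6%, 83.5%, 84.5% and 76.7%. With 1 library per dog there is no test of dog 4 against the others, and depth, culture and animal cannot be told apart there. Muscle markers summed to 24.8, 29.0, 33.9 and 32.2 CPM in dogs 1 to 4, most of it MYH7, a myosin heavy chain gene that was called above at 1.51 ± 0.16. In normalized reads MYH7 had 374, 423, 465 and 490. It was highest in dog 4, as were SLC25A4 and 35.5% of all genes with reads in every dog. Over dogs 1 to 3 MYH7 rose while SLC25A4 fell, and the part of MYH7 in the SLC25A4 values was not tested. ACTN2, called below, had 25.1, 4.61, 24.8 and 19.5 normalized reads and was not highest in dog 4. TNNT2 had 2 reads, in dog 2 only. MYL2 had 0, 3, 0 and 5 reads. The muscle genes MB, at 0 reads in every dog, and CKM, with 0, 3, 2 and 1 reads, were at or near the floor.

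**Figure D2:**
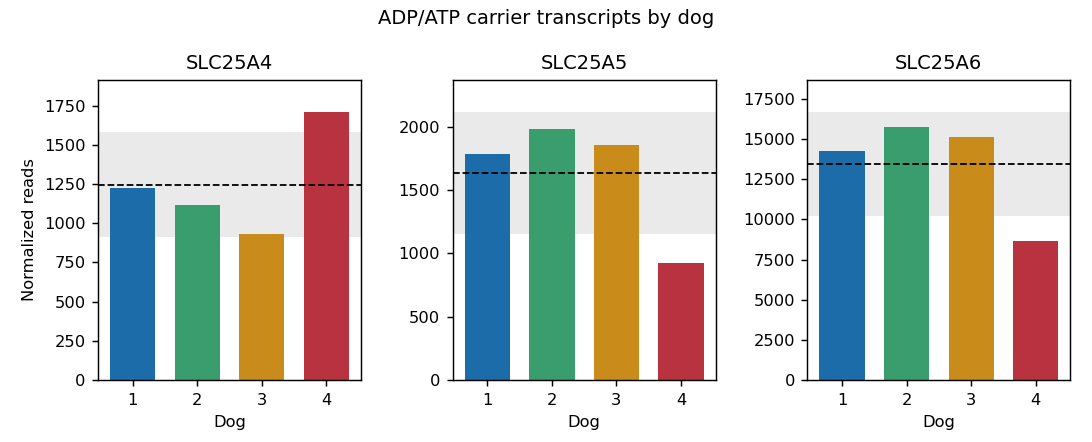
Normalized reads (y axis, linear from 0, with its own scale per panel) of SLC25A4, SLC25A5 and SLC25A6 in dogs 1 to 4, the dashed line being the mean and the grey band 1 SD on either side (n = 4 dogs). Dog 4 has the highest bar for SLC25A4, at 1711, and the lowest for SLC25A5 and SLC25A6, at 924 and 8659.

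Together the carriers held 0.182%, 0.215%, 0.218% and 0.151% of the assigned reads in dogs 1 to 4 (95% Wilson intervals 0.180 to 0.184, 0.213 to 0.217, 0.216 to 0.221 and 0.148 to 0.153), or 0.191% ± 0.032 over the dogs. SLC25A6 alone made up 48.6%, 48.9%, 47.7% and 35.5% of these reads. Without the 3 ADP/ATP carriers the rest of the family held 0.0748%, 0.0891%, 0.0949% and 0.0808%, and dog 4 was no longer the lowest.

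The calcium-regulated ATP-Mg/phosphate carriers change the pool of adenine nucleotides in the matrix, and none of the 3 measured ones passed the level test. SLC25A25 had 251, 318, 240 and 373 normalized reads in dogs 1 to 4 and a level of 0.96 ± 0.28. SLC25A23 had 33.8, 99.7, 58.2 and 121, a 3.60-fold range between dog 1 and dog 4, at a level of -0.81 ± 0.64. In contrast SLC25A41, a short form without the calcium-binding part, was steady at 118, 127, 146 and 132 normalized reads, with a level of -0.09 ± 0.10. SLC25A41 and SLC25A23 are next to each other in the RefSeq gene table, and the strand setting of the counting is not given in the sources used here.

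Carriers of nucleotides and cofactors were the largest group, and 6 of 9 were above the median detected gene, beside 33.3% of all detected genes. The pyrimidine nucleotide carrier SLC25A36 had 716, 753, 829 and 1080 normalized reads in dogs 1 to 4, highest in dog 4, at a level of 2.42 ± 0.26. Its relative SLC25A33, which also carries pyrimidine nucleotides, had 138, 121, 155 and 67.2, lowest in dog 4, and at -0.24 ± 0.44 it did not pass. SLC25A26, which brings the methyl donor S-adenosylmethionine into the matrix, had 687, 560, 578 and 1004 normalized reads, again highest in dog 4, with a level of 2.15 ± 0.39. In the RefSeq gene table SLC25A26 overlaps LRIG1, so some of its reads could belong to that gene.

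Among the other cofactor carriers, SLC25A16 (1.95 ± 0.18), linked to coenzyme A, the NAD carrier SLC25A51 (1.51 ± 0.22) and the peroxisomal SLC25A17 (1.39 ± 0.17) were above. SLC25A32, linked to folate and flavin transport, stood at 0.74 ± 0.19 and did not pass. The coenzyme A carrier SLC25A42 was below, at -1.75 ± 0.43, and had 30, 28, 23 and 25 reads in dogs 1 to 4, which gives 21.5, 25.8, 22.0 and 54.2 normalized reads. The near-equal reads thus came from libraries of unequal depth, and dog 4 was the highest. SLC25A51 and SLC25A17 were not called above in every set of 3 dogs: without dog 1, 2 or 3 their levels were 1.13 to 1.31, and without dog 4 SLC25A17 at 1.20 was not called either.

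Iron enters the matrix through mitoferrins, and glutathione, which guards matrix iron and thiols, through SLC25A39 and SLC25A40. The mitoferrin SLC25A37 (mitoferrin 1) was above the median detected gene with 479, 590, 566 and 553 normalized reads in dogs 1 to 4 and a level of 1.82 ± 0.12. SLC25A39 was above at 3.10 ± 0.19, with 1227, 1590, 1466 and 1178 normalized reads, all 4 dogs within a 1.35-fold range. SLC25A40 stood at -0.13 ± 0.52 and had 69.0, 159, 186 and 121 normalized reads, a 2.70-fold range with dog 1 lowest. SLC25A38, which supplies glycine for haem synthesis, stood at 1.26 ± 0.11 and missed the threshold narrowly (limma, Benjamini-Hochberg adjusted p = 0.0530, over 0 in 4 of 4 dogs).

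Carboxylate carriers link the citric acid cycle with the cytosol, and 2 of the 3 measured were above, beside 33.3% of all detected genes. SLC25A11, the oxoglutarate carrier of the malate-aspartate shuttle, had 1223, 1254, 1137 and 1245 normalized reads in dogs 1 to 4. These lie within a 1.10-fold range, the narrowest of the family, and the level was 2.95 ± 0.07. The citrate carrier SLC25A1, which exports citrate for fatty acid and sterol synthesis, had 934, 783, 961 and 709 and a level of 2.43 ± 0.20. SLC25A21, the oxoadipate carrier of lysine and tryptophan breakdown, had 75, 58, 42 and 14 reads and a level of -1.36 ± 0.28, which did not pass, although it was called below without dog 1 (-1.69), dog 2 (-1.68) or dog 4 (-1.48) and also, with all dogs, with a distance of 0.5, on log2 of normalized reads plus 1, with the robust prior without trend and against the median of genes read in every dog. SLC25A11 overlaps RNF167 and SLC25A21 overlaps PAX9 in the RefSeq gene table.

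Among the amino acid and carnitine carriers 4 of 8 were above the median detected gene, 1 was below, 2 were neither and 1 was not detected. Over all detected genes 33.3% were above and 35.8% below. Both aspartate/glutamate carriers, which feed the malate-aspartate shuttle, were above. SLC25A12 (aralar) had 649, 735, 806 and 874 normalized reads in dogs 1 to 4 at a level of 2.29 ± 0.18, and SLC25A13 (citrin) had 282, 522, 410 and 440 at 1.41 ± 0.35, with dog 1 lowest for both. SLC25A44, the carrier of branched-chain amino acids, stood at 1.77 ± 0.12.

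SLC25A15, which exchanges ornithine and citrulline for the urea cycle and for arginine and proline metabolism, had 449, 508, 566 and 301 normalized reads in dogs 1 to 4, lowest in dog 4, at 1.54 ± 0.37. Its close relative SLC25A2 had 0 reads in every dog, so the reads of SLC25A15 were at least 208, 184, 198 and 46.3 times higher, counting 3 reads per library as the limit of a 0. For a gene with 0 reads that limit is 0.134, 0.185, 0.197 and 0.401 CPM in dogs 1 to 4. The calls of SLC25A13 and SLC25A15 were not kept with 3 dogs in each case: SLC25A13 stood between 1.04 and 1.31 and lost its call whichever dog was left out, and SLC25A15 lost it without dog 1 (1.28), 2 (1.22) or 3 (1.26).

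SLC25A20, which brings acylcarnitines into the matrix for fatty acid oxidation, was near the median gene at -0.03 ± 0.33, with 93.4, 174, 136 and 154 normalized reads. SLC25A29, a carrier of basic amino acids, had 43.8, 25.8, 72.6 and 106 normalized reads in dogs 1 to 4, a 4.11-fold range from dog 2 to dog 4, and at -1.09 ± 0.66 it did not pass the test; without dog 4 it was called below, at -1.58. The glutamate carrier SLC25A18 was below at -3.66 ± 0.35, on 3 reads in dog 2 and 1 in dog 3.

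Uncoupling proteins and their relatives dissipate or modulate the proton gradient or carry small anions, and none of the 5 measured was above. UCP2, the form found in many tissues and in immune cells, had 175, 269, 340 and 217 normalized reads in dogs 1 to 4 and a level of 0.72 ± 0.37. The macrophage marker CSF1R was the other leukocyte gene with reads in every dog beside CD79A. It had 74.0, 228, 276 and 104 normalized reads (103, 247, 289 and 48 reads). The dogs stood in the same order as for UCP2, and the part of CSF1R in the UCP2 values was not tested. UCP3, the form of skeletal muscle and brown fat, was below at -3.10 ± 0.56, on 1, 1, 6 and 6 reads. Of the brown and beige fat markers none was above: DIO2 and ELOVL3 had 0 reads in every dog, CIDEA had 0, 2, 1 and 0, and PPARGC1A had 5, 7, 0 and 5. PRDM16, with 253, 75, 86 and 44 reads, and COX7A1, with 97, 52, 59 and 40, were read in every dog and called neither above nor below, at -0.41 ± 0.53 and -0.94 ± 0.30. In normalized reads PRDM16 had 182, 69.2, 82.1 and 95.4, highest in dog 1, and COX7A1 had 69.7, 48.0, 56.3 and 86.7, highest in dog 4. Their part in the values of the uncoupling proteins was not tested.

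SLC25A30 (KMCP1) had 237, 369, 292 and 160 normalized reads in dogs 1 to 4, lowest in dog 4, at 0.78 ± 0.46. SLC25A27 (UCP4) had 58.2, 99.7, 66.8 and 106 at -0.68 ± 0.35, and SLC25A14 (UCP5) had 70.4, 85.8, 95.5 and 82.4 at -0.64 ± 0.14. Both are known from nervous tissue, and here neither passed the test.

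Of the remaining members, whose cargo is less settled, 1 of 8 was above and 3 were below, beside 33.3% and 35.8% of all detected genes. SLC25A46 had 928, 989, 996 and 1058 normalized reads in dogs 1 to 4, within a 1.14-fold range, at a level of 2.66 ± 0.08. SLC25A43 had 104, 101, 140 and 49.9 at -0.50 ± 0.50, lowest in dog 4. SLC25A34 had 46.7, 78.4, 28.6 and 113 at -1.01 ± 0.66, highest in dog 4, and neither of these passed.

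SLC25A35 was below at -2.33 ± 0.50 on 20, 23, 26 and 2 reads, and in the RefSeq gene table it overlaps RANGRF. SLC25A47, known from liver, was below at -2.98 ± 0.82, with 0, 3, 8 and 10 reads. Although dog 4 was the shallowest library it held the most reads of SLC25A47. The third gene below was SLC25A45 (-3.70 ± 0.30), with 2 reads in dog 2 and 1 in dog 3. SLC25A48, linked to choline import, had 0 reads in all dogs, and SLC25A53 had 2 reads in dog 1 alone.

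To compare related carriers within a dog, log2 ratios of their reads were formed for the 12 pairs with both genes in the table. As long as the same isoforms are read, transcript length shifts such a ratio by the same amount in every dog, so its change between dogs does not depend on length, whereas its size and sign do. The ratio of SLC25A5 to SLC25A4 was 0.54, 0.83, 0.99 and -0.89 in dogs 1 to 4, and dog 4 alone had more reads of SLC25A4. The mean was 0.37 ± 0.86 (sign-flip permutation test over the 4 dogs, exact and two-sided, p = 0.50, Benjamini-Hochberg adjusted 0.55), and 0.79 without dog 4. For SLC25A6 to SLC25A4 the ratio was 3.54, 3.82, 4.02 and 2.34, dog 4 again lowest. By contrast the ratio of SLC25A5 to SLC25A6 held within 0.24 log2 units, at -3.00, -2.99, -3.03 and -3.23. These genes kept nearly the same proportion in dogs 1 to 3, and dog 4 stood apart on the low side by a small amount.

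The remaining ratios differed in how far they moved between dogs. SLC25A36 to SLC25A33 was 2.37, 2.63, 2.42 and 3.98 in dogs 1 to 4, a 3.05-fold shift between dog 1 and dog 4, as the one gene was highest and the other lowest in dog 4. SLC25A39 to SLC25A40 was 4.15, 3.32, 2.97 and 3.27, with dog 1 highest. SLC25A13 to SLC25A12 was -1.20, -0.49, -0.98 and -0.99, with dog 2 highest. The carrier of acylcarnitines against that of basic amino acids, SLC25A20 to SLC25A29, gave 1.09, 2.73, 0.90 and 0.53, a 4.60-fold shift between dog 2 and dog 4 that rests on 28 reads of SLC25A29 in dog 2. SLC25A14 to SLC25A30 was -1.75, -2.10, -1.61 and -0.95, while SLC25A14 to SLC25A27 changed sign between dogs at 0.27, -0.21, 0.51 and -0.36. Of the 12 pairs, 10 had 1 sign in 4 of 4 dogs, and each of these had an exact sign-flip p of 0.125, which is the lower limit with 4 dogs (2 of 16 patterns), or 0.15 after Benjamini-Hochberg adjustment over the 12, so no pair could pass 0.05.

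**Figure D3:**
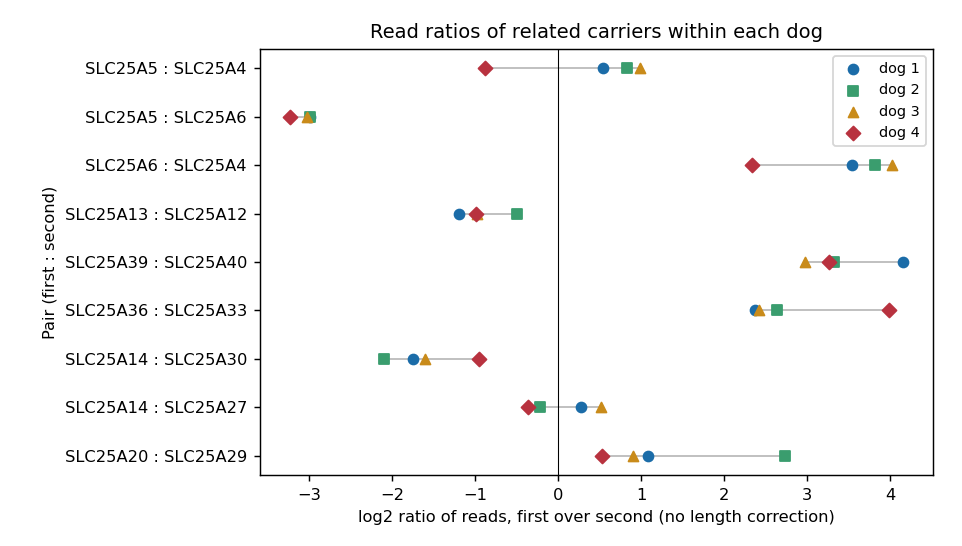
Log2 ratio of reads of related carriers within each dog (x axis, first gene over second, without length correction), 1 symbol per dog, for the 9 pairs in which both genes had more than a few reads. SLC25A5 to SLC25A6 spans 0.24 log2 units, whereas SLC25A5 to SLC25A4 runs from -0.89 in dog 4 to 0.99 in dog 3.

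As a family the carriers varied between dogs about as much as other genes. Their median SD was 0.34 log2 units, beside 0.36 over all detected genes, and 17 of 40 carriers had a larger SD than the median of the 500 detected genes nearest in level. SLC25A5 was the only carrier at or over the 90th percentile of such genes, with an SD of 0.50 against a median of 0.23. The largest SDs were those of SLC25A47 (0.82), SLC25A29 and SLC25A34 (both 0.66), SLC25A23 (0.64) and UCP3 (0.56), each with at most 108 reads in any dog. No carrier passed the test of variability against limma's trend (F test, Benjamini-Hochberg, smallest adjusted p among carriers 0.983), and 0 carriers had an unadjusted p under 0.05, against 895 of 17200 genes. The share of all detected genes past the adjusted test was 0%.

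**Figure D4:**
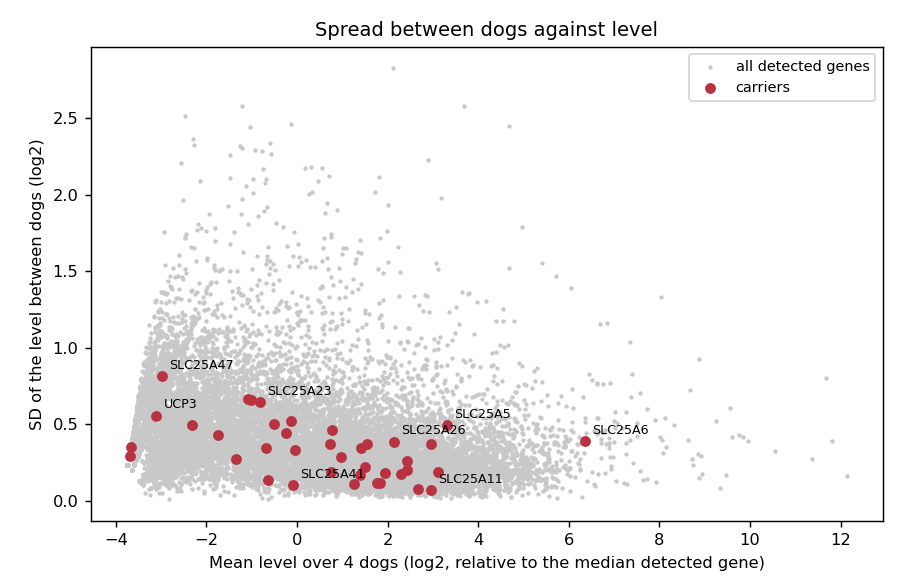
SD of the level between the 4 dogs (y axis, log2) against mean level (x axis, log2, relative to the median detected gene) for detected genes in grey and detected carriers in red, some named. The carriers lie among the other genes, with SLC25A47 highest at 0.82 and SLC25A11 among the lowest at 0.07.

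Which dog was highest or lowest was counted over the carriers. Of the 37 carriers with reads in all dogs, dog 1 was the lowest for 14 (22.3% of all such genes) and the highest for 3 (23.9%). Dog 3 was the highest for 13 (23.9%) and the lowest for 5 (27%), and dog 2 the highest for 8 (16.7%) and the lowest for 4 (20.3%). Dog 4 was the highest for 13 (35.5%) and the lowest for 14 (30.4%), so its extremes were about as frequent among carriers as among other genes. The median deviation of the detected carriers from their own means was -0.12, 0.06, 0.13 and -0.04 in dogs 1 to 4, beside 0.01, 0.00, -0.03 and 0.04 for all detected genes. By a rule on the gap to the nearest other dog, 1 library stood apart for 4 of 40 carriers (SLC25A5, SLC25A6, SLC25A42 and SLC25A11), beside 5.36% of all detected genes. Dog 4 stood low for SLC25A5 and SLC25A6 (1.69% of all detected genes had dog 4 apart on the low side), and high for SLC25A42 (1.43% on the high side), and dog 3 stood low for SLC25A11.

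Genes that work beside the carriers were read in the same way. Of 14 measured genes of the TOM and TIM22 import route, 4 were above the median detected gene, none below, 9 neither and 1 not detected. The shares over all detected genes were 33.3% above and 35.8% below. The receptor TOMM70, which takes up carrier precursors at the outer membrane, was highest at 2.73 ± 0.12, followed by TOMM20 (2.40 ± 0.23), and TIMM8B (-0.62 ± 0.38) and TOMM5 (-0.63 ± 0.25) were lowest. TIMM22, the channel that inserts carriers, stood at 0.85 ± 0.33 and did not pass.

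Of 20 genes for other routes across the mitochondrial membranes, 14 were above and 1 was below, beside 33.3% and 35.8% of all detected genes. The outer membrane pores VDAC2 (4.33 ± 0.31) and VDAC1 (3.75 ± 0.34) led, and SFXN5 (-1.89 ± 0.28), a sideroflexin, and SFXN4 (0.15 ± 0.56) were lowest. VDAC1, through which adenine nucleotides cross the outer membrane, had 2344, 2520, 2359 and 1490 normalized reads in dogs 1 to 4, lowest in dog 4. VDAC2 (3880, 3574, 3195 and 2349) was also lowest in dog 4, but VDAC3 (511, 350, 613 and 421) was lowest in dog 2. SLC25A5 and SLC25A6 were lowest in dog 4, whereas SLC25A4 was highest there. Of all genes with reads in every dog, 30.4% were lowest in dog 4. MTCH1 (3.64 ± 0.10) and MTCH2 (2.48 ± 0.26), divergent relatives of the family in the outer membrane that the symbol rule leaves out, were above.

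Of 33 enzymes that make or use the carriers' cargo 22 were above, none below, 10 neither and 1 not detected. Over all detected genes 33.3% were above and 35.8% below. SHMT2, the matrix enzyme of serine and glycine metabolism, was highest at 5.50 ± 0.15 and citrate synthase (CS) next at 4.80 ± 0.29. CPT1C (-0.34 ± 0.25), a brain-type relative of the acylcarnitine-forming enzymes, was among the lowest. The urea cycle gene OTC, which uses ornithine brought in by SLC25A15, had 0 reads in every dog.

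Among 16 regulators of mitochondrial biogenesis 7 were above, 2 below and 7 neither, beside 33.3% above and 35.8% below over all detected genes. PPRC1 (3.22 ± 0.20) and MYC (3.02 ± 0.36) were highest. The fatty acid sensor PPARA (-2.90 ± 1.22) and the coactivator PPARGC1A (-3.11 ± 0.62) were lowest, PPARA with 37 reads in dog 1, 28 in dog 2 and none in the others.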

How the data were processed

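Per the labels' protocols, a stranded kit with ribosomal RNA depletion turned 10 ng of total RNA into each library. The submitters' processing notes name CanFam3.1 as the build and, as tools, STAR 2.7.11a, Trimmomatic 0.39, FastQC 0.12.1 and DESeq2. Counting tool, strand setting and annotation release stand in none of the sources used here. Per the file headers, the deposited table holds log2 values that the authors made by variance-stabilizing transformation (VST).

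The transformation was inverted from its value at 0 reads, which gave whole reads in 100% of values within 0.01 reads (size factors 1.39, 1.08, 1.05 and 0.461). Normalized reads are reads divided by these factors. Levels were tested on the deposited log2 values in limma 3.58.1 (R 4.3.3; intercept only, trended prior, distance 1, threshold 0.05), and the scripts were tested on simulated data. The library names give each replicate its own dog. The planned differences per coding length were replaced by read ratios with 0.5 reads added, since no lengths were at hand, and 6 of 18 planned pairs lacked a gene. Of 43 members 42 have an entry in the RefSeq gene table (UU_Cfam_GSD_1.0), used for names and neighbours only; protein and promoter sequences were not used here. All members but 1, which is not reported here, are named; values by dog follow a rule (pair members, the 10 highest levels, the 10 largest SDs, libraries that stand apart), and each other list gives its 2 highest and 2 lowest genes, except 1 gene that is not reported here. The symbol rule used no measured value, but the rule and the lists were set with earlier results of these data known.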

Additional observations from a re-analysis of the deposited data

Results flagged for a closer look

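In 7 values 1 dog stood far from the other 3, its gap to the nearest being most of the whole range. Chance flags about 1 in 20 groups, and 4 of 40 carrier levels were flagged, beside 5.36% of all detected genes. In dog 4 the level of SLC25A6 was low at 5.77, the level of SLC25A5 was low at 2.57 and the level of SLC25A42 was high at -1.11, the last on 25 reads. In dog 3 the level of SLC25A11 was low at 2.84, in a gene whose dogs all lie within a 1.10-fold range. In dog 4 the share of SLC25A5 among the reads of the ADP/ATP carriers was low at 8.18%, its log2 read ratio to SLC25A6 was low at -3.23, and the ratio of SLC25A36 to SLC25A33 was high at 3.98. Dog 4 was also the shallowest library, and the part of depth in these values was not tested.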

How the results depend on the processing

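Of the 18 carriers called above, 13 were called above whichever dog was left out, and of the 6 below, 4 were; SLC25A18 and SLC25A45, the other 2 below, were not detected without dog 2 or dog 3. With 1 dog left out, 10.5% to 20% of the detected carriers were below, beside 32.7% to 35.2% of all detected genes. The counts with 3 dogs were 13 to 16 above and 4 to 8 below. They were 9 above with a distance of 2, 9 above and 12 below with the median over genes read in all dogs, 9 above when only those genes were tested, and 34 above and 0 below when no gene was filtered out, since the median gene is then one with almost no reads. In these settings, in that order, 22.5%, 22.5%, 24.3% and 79.1% of carriers were above. The shares over all genes tested were 19.1%, 21.7%, 26.7% and 35.6%. Quantile normalization gave every carrier the same call. With the median over genes read in all dogs, and when only those genes were tested, SLC25A30 (-0.044), SLC25A32 (-0.082) and UCP2 (-0.10) changed sign. With every gene tested the levels of SLC25A14 (2.76), SLC25A20 (3.36), SLC25A21 (2.04), SLC25A23 (2.58), SLC25A27 (2.72), SLC25A29 (2.31), SLC25A33 (3.16), SLC25A34 (2.39), SLC25A35 (1.07), SLC25A40 (3.27), SLC25A41 (3.31), SLC25A42 (1.65), SLC25A43 (2.90), SLC25A47 (0.41) and UCP3 (0.29) did. The mean log2 ratio of SLC25A14 to SLC25A27 was -0.022 without dog 1, -0.10 without dog 3 and at most 0.19 with any 3 dogs; the cause was not tested. The carriers' read share was 0.243% outside the 10 most abundant genes and 0.0849% without SLC25A4, SLC25A5 and SLC25A6, which are fewer reads by construction, and 0.182% to 0.205% with 3 dogs. The mean share of SLC25A4 among the ADP/ATP carriers (leaving out dogs was added after seeing the data) was 6.08% to 9.39%. No paired analysis was possible because the labels give 1 group only. The depth of dog 4 limits members with few reads there, such as SLC25A35 with 2.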

Other observations

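Pyruvate carboxylase (PC), which makes oxaloacetate from pyruvate in the matrix, had 185, 231, 334 and 1748 normalized reads in dogs 1 to 4, at a level of 1.41 ± 1.42 that did not pass the test. It was picked from the enzyme list after its values were seen. Citrate synthase (CS), by contrast, had 5026, 4819, 4891 and 3262 normalized reads and PDHA1, a subunit of pyruvate dehydrogenase, 1287, 1357, 1383 and 965, both lowest in dog 4. IDH2, with 2039, 1162, 1574 and 2919, and CPT1B, with 103, 146, 160 and 275, were highest there, as PC was. These are examples, and directions in dog 4 were not counted over the list. Of all genes with reads in every dog, 35.5% were highest and 30.4% lowest in dog 4.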
